A study of Homo sapiens with 6 samples.

Results

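The aminoacyl-tRNA synthetases are the enzymes that load each transfer RNA with its amino acid. They were followed here in Het1A cells, a human oesophageal epithelial line immortalised with the SV40 large T antigen, after repeated exposure to bile acids in acidic medium. The 36 genes were taken by symbol from the table of counts per gene, in which each was listed a single time among 58735 genes. The 20 symbols without a final 2 encode cytosolic enzymes or enzymes shared between compartments, and the 16 that end in 2 encode mitochondrial enzymes. RNA was sequenced from 6 libraries, 3 of each group. Bile acid cells received medium at pH 4.0 with bile acids mixed to 100 µM (deoxycholic acid, the taurine conjugate taurocholic acid, and glycine conjugates of cholic, deoxycholic and chenodeoxycholic acid) for 10 min a day on 5 days. Control cells received 0.1% DMSO, the vehicle. Serum was lowered to 1% 48 h before the first exposure and stayed there, and RNA was taken 24 h after the final exposure. Whether vehicle was given in acidified medium is not stated, so the comparison is of acid and bile acids together against vehicle. The labels call the libraries biological replicates without saying how the cultures were separated, so p-values measure the spread between these libraries, which may be technical.

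Each synthetase joins an amino acid to its cognate tRNA at the cost of ATP, and the charged tRNA then delivers the amino acid to the ribosome. Cytosol and mitochondria use mostly separate enzymes, but GARS and KARS each supply both compartments from a single gene. Several cytosolic enzymes sit in a multisynthetase complex held together by the scaffold proteins AIMP1, AIMP2 and EEF1E1. The transcription factor ATF4, which is translated when amino acids run short or unfolded protein accumulates, is known to raise transcription of many cytosolic synthetase genes through a C/EBP-ATF response element.

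Promoter sequences from RefSeq (GRCh38.p14, 250 bases before each gene's start and 50 from it) were matched for 30 of the 36 genes, and DARS, LARS, YARS, VARS, AARS2 and VARS2 had no entry. The C/EBP-ATF element was searched as TGATGNAA on both strands. It occurred in 7 of the 30 promoters and in 1003 of all 27305 promoters (3.67%). Of the 16 cytosolic promoters 6 held it, and of the 14 mitochondrial promoters 1 did, that of YARS2. The 6 cytosolic matches are shown with 10 bases on each side because the same 8 letters recur in all of them, on one strand or the other. Sequences run 5′ to 3′ on the gene's strand, capitals mark the match, and positions count from the start base as +1.
AARS: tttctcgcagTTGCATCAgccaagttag
CARS: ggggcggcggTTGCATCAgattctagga
IARS: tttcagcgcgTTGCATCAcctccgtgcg
MARS: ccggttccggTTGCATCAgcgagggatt
NARS: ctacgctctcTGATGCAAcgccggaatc
TARS: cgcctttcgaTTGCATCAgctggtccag
YARS2: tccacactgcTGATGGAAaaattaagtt
The windows lie at chr16:70289676-70289703 (AARS, minus strand), chr11:3057408-3057435 (CARS, minus), chr9:92293693-92293720 (IARS, minus), chr12:57488054-57488081 (MARS, plus), chr18:57621805-57621832 (NARS, minus), chr5:33440957-33440984 (TARS, plus) and chr12:32756077-32756104 (YARS2, minus). In CARS, IARS, MARS, NARS and TARS the match fell between positions −13 and 22, across or beside the start. In AARS it began at −187 and in YARS2 at −197. A match describes the letters of the promoter and is not evidence of binding.

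HARS and HARS2, the cytosolic and mitochondrial histidyl-tRNA synthetases, start back to back on chromosome 5, with 84 bases between their RefSeq starts. That stretch is shown because it lies between the starts of the only pair of the 36 genes whose annotated ends overlap. Whether this stretch controls both genes was not tested. It lies at chr5:140691371-140691454 and is printed on the plus strand, with capitals marking 2 matches to CCGGAAG, the core bound by ETS factors such as GABPA, on either strand.
HARS-HARS2: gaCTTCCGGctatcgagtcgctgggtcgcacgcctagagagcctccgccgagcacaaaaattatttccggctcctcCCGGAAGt
The same 7 letters occurred in 14 of the 30 synthetase promoters and in 10.7% of all promoters.

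The libraries held 21006677 to 28497721 counts. Control library 2 stood apart: its log2 CPM correlated with the other controls at Pearson r of 0.905 and 0.907 across genes, against 0.974 to 0.986 for every other pair within a group, and it detected 19101 genes against 24174 to 25337 in the others. Results are therefore given with and without it. Of the markers of simple epithelium, KRT8 lay at 347 to 575 CPM (for these markers, counts relative to the total of the library). KRT18 lay at 206 to 559 CPM, KRT19 at 56.2 to 125, EPCAM at 38.2 to 69.7 and CDH1 at 5.52 to 21.2. Of 5 markers of squamous or basal epithelium, KRT5 (0 to 0.546 CPM), KRT14 (0 to 0.144), KRT6A (0.180 to 1.00) and TP63 (0 to 0.0741) were at or near 0, whereas KRT17 lay at 46.6 to 149 CPM. Of the mesenchymal genes, VIM lay at 109 to 215 CPM, FN1 at 216 to 816, COL1A1 at 36.3 to 233 and CDH2 at 43.6 to 73.8. The mesenchymal gene DCN was near 0, at 0.0910 to 0.468 CPM. Of the leukocyte markers, PTPRC had 0 counts in every library and CD68 had at most 3. Of the endothelial markers, CDH5 had 0 counts in every library and PECAM1 had at most 9. In bulk RNA, fewer cells of a kind and less RNA per cell cannot be told apart.

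Cytosolic synthetase genes were far more abundant than mitochondrial ones. On the authors' FPKM scale, which divides by the exonic length of the gene, the mean of the 5 libraries without control 2 had a median of 42.2 over the 20 cytosolic genes and 6.23 over the 16 mitochondrial genes, against 3.29 over all genes tested. AARS, the alanyl enzyme, was highest at 167 FPKM, followed by GARS at 133. IARS2, which charges mitochondrial isoleucine tRNA, was the highest mitochondrial gene at 42.7 FPKM, close to the cytosolic median. The lowest cytosolic genes were VARS at 9.99 FPKM and HARS at 9.75, and 5 mitochondrial genes lay above HARS. SARS2, the mitochondrial seryl enzyme, was lowest of all at 0.610 FPKM. FPKM depends on the annotated exonic length, which is 7853 bases for HARS and 10460 for CARS2, so their levels are sensitive to exons that these cells may not use.

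**Figure D1:**
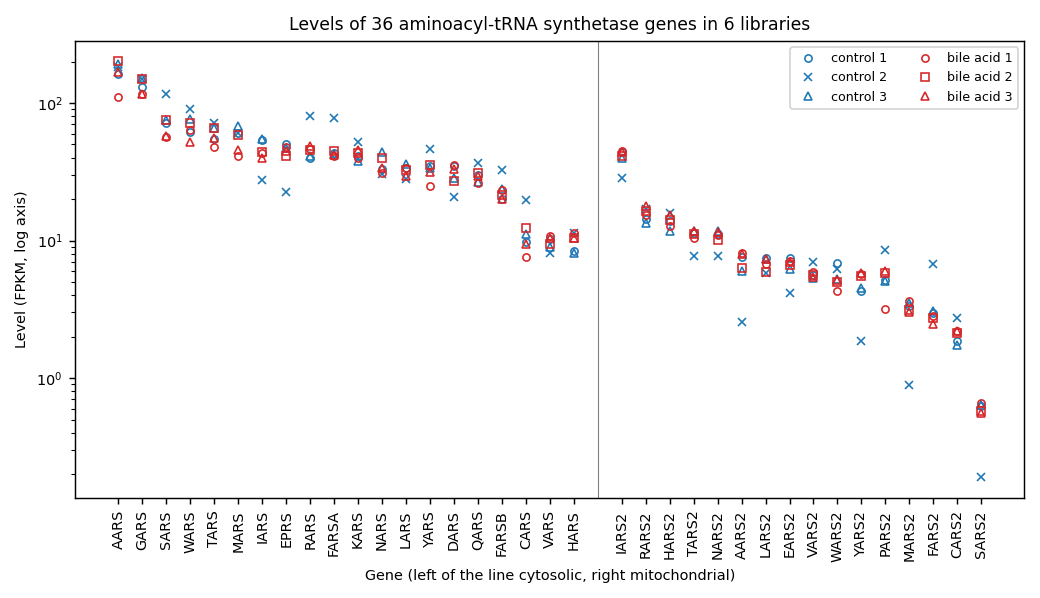
FPKM (log axis) of the 36 synthetase genes in each of the 6 libraries, cytosolic genes left of the vertical line and mitochondrial genes right of it, with a point for each library, controls in blue and bile acid libraries in red. AARS and GARS lie at the top of the cytosolic genes, and IARS2 lies above the other mitochondrial genes, among the cytosolic levels.

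Of the 16 amino acids with a cytosolic and a mitochondrial gene among these 36, 14 had more of the cytosolic transcript per length in every library. HARS to HARS2 was the exception in all 6 libraries, with ratios of 0.612 to 0.885, and IARS to IARS2 ran from 0.899 to 1.39. The ratio of YARS to YARS2, the tyrosyl pair, was 8.12, 25.0 and 7.41 in the controls and 4.36, 6.43 and 5.43 in the bile acid libraries. It was lower in every bile acid library than in any control, although control 2 alone carried most of the distance. The ratio of FARSA, the catalytic subunit of the cytosolic phenylalanyl enzyme, to FARS2, its mitochondrial counterpart, was 14.4, 11.5 and 13.8 in the controls and 14.7, 16.4 and 16.8 in the bile acid libraries. These ratios are given because their groups did not overlap: of the 16, 1 was wholly higher and 1 wholly lower. Without control 2, 1 was higher and 3 lower, with IARS to IARS2 and EPRS to EARS2 added. Of single genes, 10.2% separated with all libraries and 24.8% without control 2. No such share was computed for ratios of other genes. FARSA and FARSB, whose products pair in a fixed ratio in the enzyme, had transcript ratios of 1.78 to 2.38.

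No synthetase gene was called as changed between bile acid and control cells. In edgeR's quasi-likelihood test with Benjamini-Hochberg adjustment, 36 of 36 were tested and 0 passed an adjusted p of 0.05 (0% of the 17743 genes tested were called). DESeq2 called 0 of the 36 and 18 of all genes (0.101%), and limma-voom called 0 of each. Unadjusted p was below 0.05 for 0 of the 36, against 563 of all genes (3.17%). The adjusted p of the 36 ran from 0.922 to 0.998. Without control 2, edgeR called 1 gene (0.00547%) and DESeq2 155 (1.01%), and neither called a synthetase. Unadjusted p was then below 0.05 for 3 of the 36 (HARS, IARS and MARS), against 7.75% of all genes. A standard error of 0.23, the median over the 36 log2 differences, sets what could be seen; without control 2 it was 0.15, and smaller for every member.

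**Figure D2:**
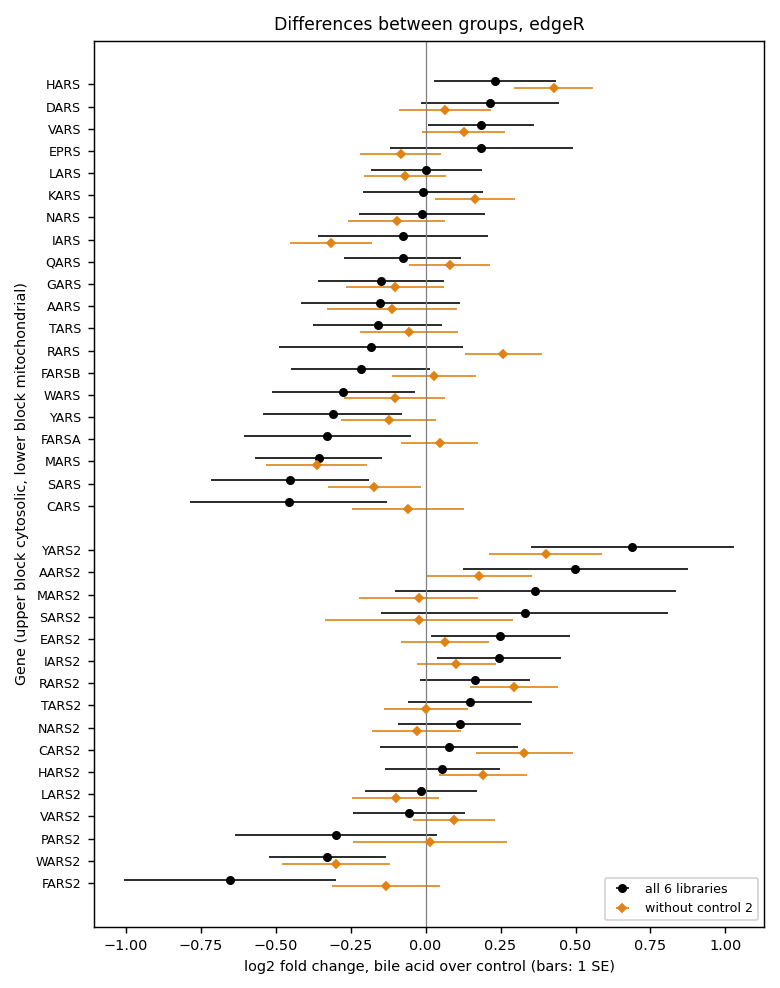
Log2 difference, bile acid minus control, with bars of 1 standard error for each of the 36 genes, from edgeR with all 6 libraries and without control 2. With all libraries 34 of the 36 estimates lie within 0.5 of zero, and without control 2 all 36 do.

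As a list, the cytosolic genes had a median log2 difference of −0.15, with 5 above 0 and 15 below. The mitochondrial genes had a median of 0.13, with 11 above and 5 below, and all genes tested had a median of −0.01. Without control 2 these medians became −0.06 (8 above, 12 below), 0.04 (10 above, 6 below) and 0.0046. Leaving out that library changed the sign of 7 cytosolic and 5 mitochondrial genes. The 8 enzymes of the multisynthetase complex had a median of −0.04, with 3 above and 5 below. The 3 bile acid libraries were all higher than the 3 controls for 1 of the 36 genes, YARS2, and all lower for 2, FARS2 and WARS2. Over all genes these shares were 5.29% and 4.89%, 10.2% together, so the synthetases separated about as often as any gene.

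Of the cytosolic genes, 12 are targets of ATF4 according to background knowledge: AARS, CARS, EPRS, GARS, IARS, LARS, MARS, NARS, SARS, TARS, WARS and YARS. Their median log2 difference was −0.16, with 2 above 0 and 10 below. From here on, CPM are counts scaled between libraries by the trimmed mean of M values. MARS, the methionyl enzyme, stood at 486, 499.8 and 551 CPM in the controls and at 341, 486 and 373 CPM after bile acid. Bile acid library 2 matched the lowest control and the other 2 lay under all controls. The log2 difference was −0.36 (SE 0.21, edgeR unadjusted p = 0.135), and −0.36 (SE 0.17, edgeR unadjusted p = 0.0499) without control 2. Of the exonic bases of MARS, 13.3% overlap other genes: ARHGAP9 and DDIT3 on the opposite strand and MIR6758 on the same strand.

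SARS, the cytosolic seryl enzyme, stood at 316, 524 and 329.8 CPM in the controls and at 254, 339.7 and 260.0 CPM after bile acid. Control 2 lay far above the other libraries and bile acid library 2 exceeded controls 1 and 3. Its log2 difference of −0.45 (SE 0.26, edgeR unadjusted p = 0.128) became −0.17 (SE 0.16) without control 2. CARS, the cysteinyl enzyme, showed the same layout, at 112, 232 and 129 CPM in the controls and 89.1, 146 and 110.1 CPM after bile acid. Its log2 difference was −0.46 (SE 0.33, edgeR unadjusted p = 0.206), and −0.06 (SE 0.19) without control 2. YARS, the cytosolic tyrosyl enzyme, stood at 328, 449 and 318 CPM in the controls and at 241, 341 and 302.5 CPM after bile acid. The groups overlapped, and the log2 difference was −0.31 (SE 0.23, edgeR unadjusted p = 0.222), or −0.12 (SE 0.16) without control 2.

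AARS stood at 839, 973 and 994 CPM in the controls and at 589, 1058 and 879 CPM after bile acid, so that the lowest and the highest library were both bile acid libraries. Its log2 difference was −0.15 (SE 0.27). GARS, the glycyl enzyme of both compartments, stood at 616, 725 and 723 CPM and at 566, 729 and 565 CPM, again with the highest value in bile acid library 2. WARS, the tryptophanyl enzyme and a known interferon-induced gene, stood at 449, 680.0 and 556 CPM in the controls and at 473, 535 and 385 CPM after bile acid. IARS, the cytosolic isoleucyl enzyme, stood at 453.5, 239 and 467 CPM in the controls and at 375, 384 and 342 CPM after bile acid. Control 2 was its lowest library; without it every bile acid library lay under both controls, with a log2 difference of −0.32 (SE 0.14, edgeR unadjusted p = 0.0377) in place of −0.07.

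**Figure D3:**
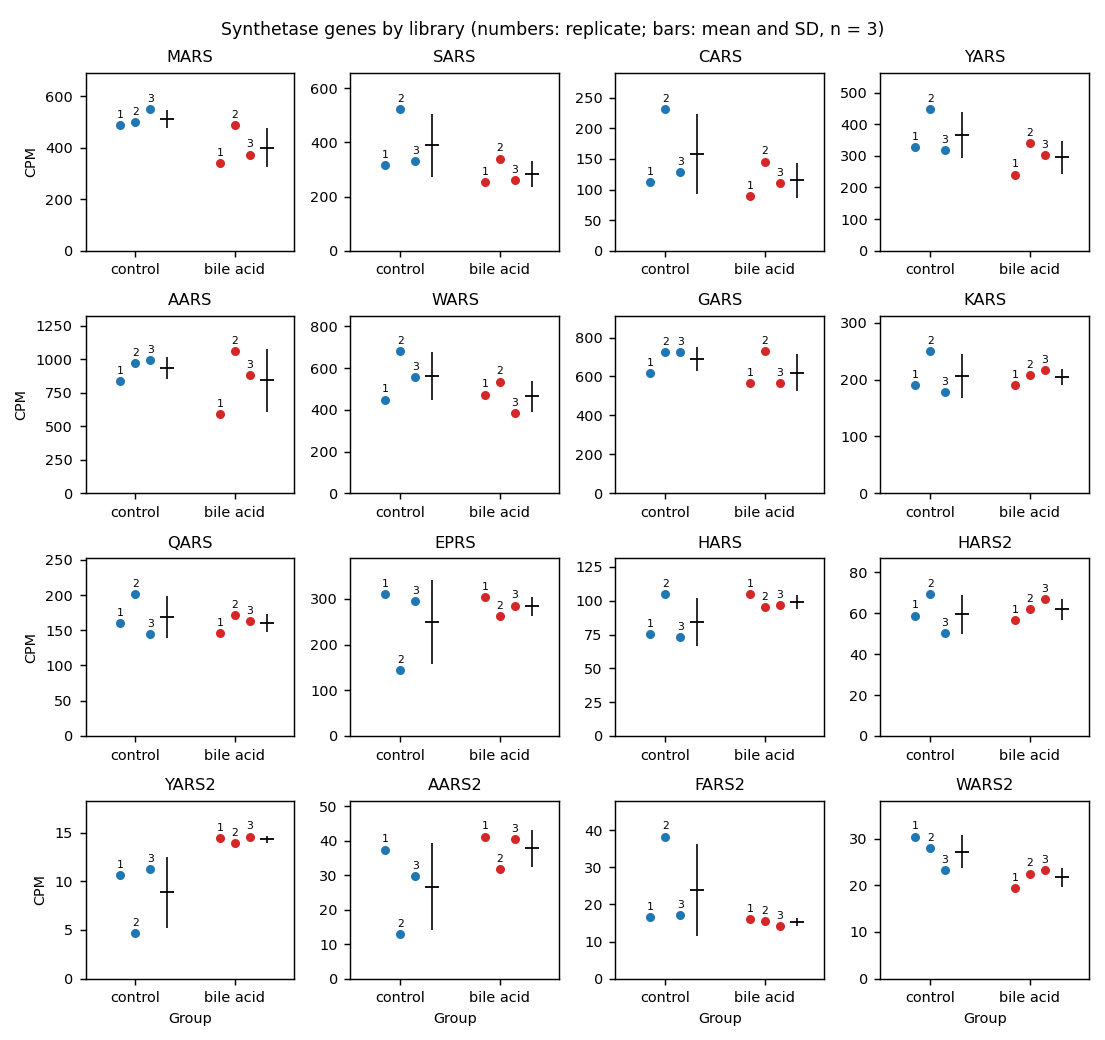
CPM by library for 16 synthetase genes described in the text, with a numbered point for each library, controls in blue and bile acid libraries in red, and the mean and SD of each group of 3. YARS2 is the gene whose bile acid libraries all lie above the controls, and FARS2 and WARS2 are those whose bile acid libraries all lie below.

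KARS and QARS, the lysyl and glutaminyl enzymes of the multisynthetase complex, hardly differed between group means. KARS stood at 189.9, 249.5 and 178 CPM in the controls and 189.8, 207 and 216 CPM after bile acid, a log2 difference of −0.01 (SE 0.20). QARS stood at 160.3, 202 and 145 CPM and at 146, 171 and 163 CPM, a log2 difference of −0.08 (SE 0.20). EPRS, the bifunctional glutamyl-prolyl enzyme of the complex, stood at 311, 143 and 295 CPM in the controls and at 305, 262 and 285 CPM after bile acid. The low control 2 gave it a log2 difference of 0.19 (SE 0.31), which was −0.08 (SE 0.14) without that library. Of the scaffolds, AIMP1 stood at 50.7, 52.6 and 53.7 CPM in the controls and 49.5, 52.5 and 49.1 CPM after bile acid. AIMP2 ranged from 15.9 to 21.4 CPM over the 6 libraries. EEF1E1 stood at 12.9, 63.7 and 14.1 CPM in the controls and 13.1, 18.3 and 10.7 CPM after bile acid. Its log2 difference of −1.11 (SE 0.63) came to 0.06 without control 2, the library that alone held the high value.

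HARS stood at 75.6, 105 and 72.8 CPM in the controls and at 105, 95.6 and 96.7 CPM after bile acid. Controls 1 and 3 lay below every bile acid library, and control 2 lay within them. The log2 difference was 0.23 (SE 0.20, edgeR unadjusted p = 0.290). Without control 2 it was 0.43 (SE 0.13), with an unadjusted p of 0.00636 and an adjusted p of 0.405 by edgeR; over all alternatives the lowest adjusted p of any synthetase was 0.217. Its neighbour HARS2 stood at 58.8, 69.4 and 50.4 CPM in the controls and at 56.5, 62.1 and 67.1 CPM after bile acid, overlapping throughout, with a log2 difference of 0.06 (SE 0.19). The annotated exons of HARS (5:140673904-140691862, minus strand) and HARS2 (5:140691426-140699318, plus strand) share 437 bases, and whether counting used strand is not stated.

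The cytosolic genes not yet described, which charge aspartate (DARS), phenylalanine (FARSA and FARSB), leucine (LARS), asparagine (NARS), threonine (TARS) and valine (VARS) tRNAs, had log2 differences from −0.33 for FARSA to 0.22 for DARS, with overlapping groups in each. RARS, the arginyl enzyme, resembled HARS once control 2 was set aside. It stood at 157, 324 and 160.4 CPM in the controls and at 187, 183 and 195.5 CPM after bile acid, a log2 difference of −0.18 that became 0.26 (edgeR unadjusted p = 0.0649) without control 2. The 8 cytosolic genes outside the ATF4 list, DARS, FARSA, FARSB, HARS, KARS, QARS, RARS and VARS, had a median of −0.04, with 3 above 0 and 5 below. Without control 2 their estimates were all above 0, from 0.03 to 0.43, whereas those of the 12 ATF4 targets were all below 0, from −0.36 to −0.05. With all 6 libraries the 12 targets had 2 above 0 and 10 below. The lists were written with earlier results of these data known, so this split is not independent of the data. No test of this contrast was made, and none of the 20 genes passed the adjusted threshold.

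Among mitochondrial genes, YARS2, the tyrosyl enzyme, stood at 10.6, 4.70 and 11.2 CPM in the controls and at 14.4, 13.9 and 14.6 CPM after bile acid. All 3 bile acid libraries were higher than all 3 controls, on 84 counts in control 2 and 264 to 420 in the other libraries. The group means were 8.85 ± 3.61 and 14.3 ± 0.374 CPM (SD, n = 3), and the log2 difference was 0.69 (SE 0.34) with an edgeR unadjusted p of 0.0802, or 0.40 (SE 0.19) with 0.0550 without control 2. The gene lies at 12:32727490-32755902 on the minus strand of GRCh38, the build of the coordinates in the deposited table.

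FARS2, the mitochondrial phenylalanyl enzyme (6:5261044-5829192, plus strand), stood at 16.57, 38.36 and 17.09 CPM in the controls and at 16.05, 15.61 and 14.08 CPM after bile acid. The bile acid libraries were all below the controls, by a small margin for controls 1 and 3. The log2 difference of −0.65 (SE 0.35, edgeR unadjusted p = 0.105) became −0.13 (SE 0.18) without control 2. WARS2, the mitochondrial tryptophanyl enzyme (1:119031216-119140671, minus strand), stood at 30.4, 27.9 and 23.3 CPM in the controls and at 19.3, 22.5 and 23.3 CPM after bile acid. Its groups were separate but met at control 3 and bile acid library 3. Its log2 difference hardly moved with control 2, at −0.33 (SE 0.20, edgeR unadjusted p = 0.134) with it and −0.30 (SE 0.18, edgeR unadjusted p = 0.121) without.

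AARS2, the mitochondrial alanyl enzyme, stood at 37.4, 12.8 and 29.7 CPM in the controls and at 41.2, 31.7 and 40.3 CPM after bile acid. Control 1 lay among the bile acid libraries, and the log2 difference was 0.50 (SE 0.38, edgeR unadjusted p = 0.223), or 0.18 (SE 0.18) without control 2. CARS2 and RARS2, the cysteinyl and arginyl enzymes, had log2 differences of 0.08 and 0.16. Without control 2 both had all bile acid libraries above the controls, with log2 differences of 0.33 (edgeR unadjusted p = 0.0617) and 0.29 (edgeR unadjusted p = 0.0655). In all, 5 synthetase genes then lay wholly higher (HARS, RARS, CARS2, RARS2 and YARS2) and 3 wholly lower (IARS, FARS2 and WARS2), against 24.8% of all genes in either direction. IARS2 stood at 208, 139 and 189.6 CPM in the controls and at 221, 199.9 and 214 CPM after bile acid. The remaining mitochondrial genes, EARS2, LARS2, MARS2, NARS2, PARS2, SARS2, TARS2 and VARS2, had overlapping groups and log2 differences from −0.30 for PARS2 to 0.37 for MARS2, the latter with 56 counts in control 2 against 284 to 361 in the other libraries. SARS2 rested on 13 counts in control 2 and 55 to 70 in the other libraries, and 57.0% of its exonic bases are shared with other genes.

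Control 2 departed from the other libraries in both directions within each compartment. At the median it lay above the mean of controls 1 and 3 for cytosolic genes and below for mitochondrial genes. It was the highest of the 6 libraries for 15 of the 36 genes (10 cytosolic, 5 mitochondrial) and the lowest for another 15 (6 cytosolic, 9 mitochondrial). Its median log2 ratio to the mean of controls 1 and 3 was 0.34 over the cytosolic genes and −0.41 over the mitochondrial genes. The range ran from −1.91 for MARS2 to 1.19 for FARS2. Over all genes it was the highest library for 36.4% and the lowest for 41.8%.

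Apart from control 2, many ATF4 targets among the synthetases varied between libraries of a group in a shared order. AARS, CARS, MARS, NARS, SARS, TARS and YARS, 7 of the 12 targets (58.3%), were lowest in bile acid library 1, intermediate in library 3 and highest in library 2. So were 24.1% of all genes tested, 2 of the other 8 cytosolic genes (FARSA and QARS) and 0 of the 16 mitochondrial genes. Bile acid library 1 was the lowest of its group for the same 7 of the 12 targets, which that order requires, so this count adds nothing for them. It was lowest for 3 of the other 8 cytosolic genes and 5 of the 16 mitochondrial genes, against 36.6% of all genes. Control 3 exceeded control 1 for 10 of the 12 targets, for 2 of the other 8 cytosolic genes, for 6 of the 16 mitochondrial genes and for 49.8% of all genes. ATF4 itself stood at 737, 2247 and 895 CPM in the controls and at 446, 1099 and 837 CPM after bile acid, a log2 difference of −0.70 (SE 0.51), or −0.03 without control 2. AARS and TARS followed its order over all 5 libraries other than control 2, as did 291 of all genes (1.64%). This order was noticed in these data, and libraries of a group have no order of their own by design. Of the 6 cytosolic genes with the TTGCATCA letters, 5 had the order within the bile acid libraries (all but IARS). All 6 were higher in control 3 than in control 1, and their log2 differences between groups were −0.46 to −0.01. These 6 are all among the 12 targets, so both counts repeat part of those above and add no separate result. SARS had the order without a match, and YARS, which also had it, had no promoter entry. YARS2, whose promoter matched the searched element with other letters, lacked the order but was also higher in control 3. Whether the element bears on the order was not tested. The differences were modest: from the lowest to the highest of the 5 libraries the median fold was 1.30 over the 36 synthetases, from 1.09 for FARSA to 1.87 for PARS2, against 1.50 over all genes.

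**Figure D4:**
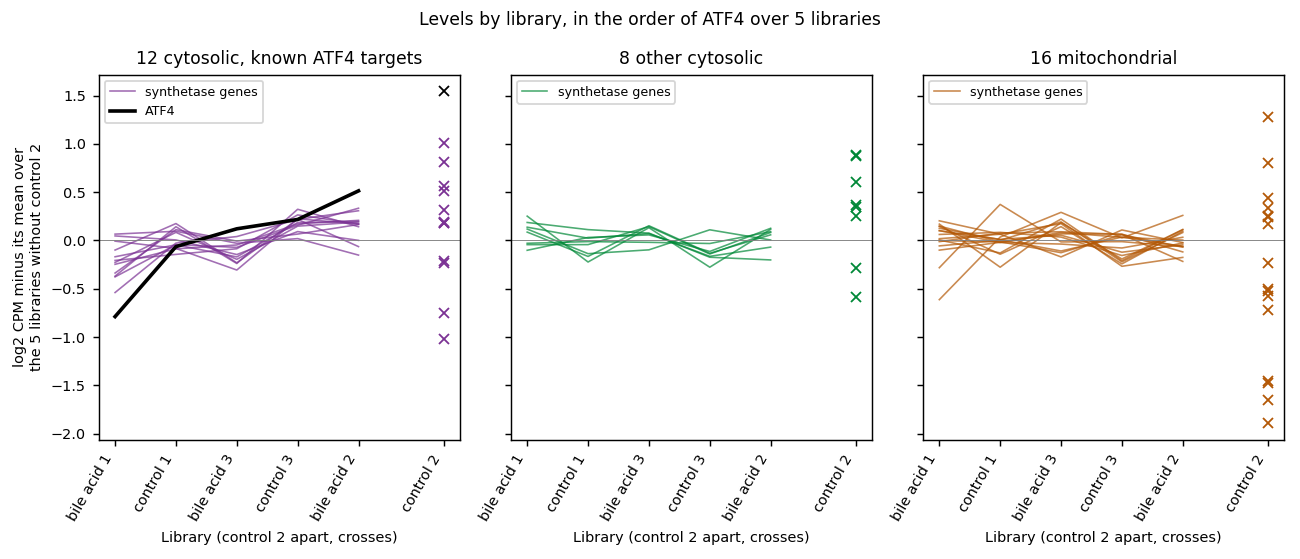
Log2 CPM minus its mean over the 5 libraries other than control 2, a line for each synthetase gene and a thick line for ATF4, with libraries along the axis in the order of ATF4 and control 2 apart as crosses. Many ATF4-target cytosolic genes lie low in bile acid library 1 and high in library 2, as ATF4 does, and mitochondrial genes do not share that order.

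In the wider lists no gene was called either, and no test of a list was made. A list of 17 other genes of tRNA charging and delivery included the scaffolds, XPOT and the elongation factor genes EEF1A1, TUFM, TSFM and GFM1. Of these 17, 0 were called, with a median log2 difference of −0.15 (3 above 0, 14 below). Without control 2 the median was −0.03 (8 above, 9 below). XPOT, which exports tRNA from the nucleus, stood at 524, 389.5 and 641 CPM in the controls and at 440.3, 504 and 397 CPM after bile acid. It is named because, without control 2, it was the 1 gene of the 17 whose groups separated. Its bile acid libraries then lay below both controls, as for 12.7% of all genes. The log2 difference was −0.21 (SE 0.24), and −0.37 (SE 0.16, edgeR unadjusted p = 0.0350) without control 2. Of 12 genes of the integrated stress response, the ATF4 pathway, 0 were called and the median was −0.15 (3 above, 9 below). DDIT3, a pro-apoptotic target of ATF4, stood at 30.7, 173 and 48.3 CPM in the controls and at 21.7, 58.0 and 35.8 CPM after bile acid; its log2 difference of −1.12 was −0.02 without control 2. ASNS, the asparagine synthetase and another target, stood at 31.1, 7.95 and 55.6 CPM and at 18.2, 40.2 and 28.5 CPM, with control 2 lowest where it was highest for DDIT3. Other annotated genes overlap 39.6% of the exonic bases of DDIT3 and 44.6% of those of ASNS. The median fold from the lowest to the highest of the 5 libraries was 1.79 over these 12 genes, above the 1.30 of the synthetases.

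The authors' deposited table of differential expression gave the same picture for these genes. In it, 0 of the 36 synthetases and 19 of all genes passed an adjusted p of 0.05, and the synthetases' adjusted p ran from 0.977 to 0.999. The authors' deposited table put YARS2 at a log2 difference of 0.70 (SE 0.38), FARS2 at −0.64 and HARS at 0.24. For 2 of the 36 its sign differed from that of edgeR, and the estimates differed by 0.05 at most. Exonic bases are shared with another annotated gene in 20 of the 36, and in 5 the share exceeds 10% of the gene: WARS, MARS, HARS2, VARS2 and SARS2. Reads recovered from the deposited normalised counts lay within 5% of the count table in every library for 29 of the 36, whereas DARS was at least 8.26%, AARS2 at least 6.06% and GARS at least 5.47% higher there in every library.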

How the data were processed

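Total RNA of 3 control and 3 bile acid samples was sequenced as paired-end reads, per the labels. Per the submitters' processing notes, HISAT2 2.0.5, featureCounts and DESeq2 were used with GRCh38; the annotation and the strand setting are not given in the sources used here. GENCODE 29 has identical coordinates for 58724 of the 58735 deposited genes and was used for exon overlaps. The deposited table of counts per gene gave the whole-number counts used for testing, with gene length in bases beside them. FPKM values are as deposited by the authors and were used for levels between genes. The authors' normalised counts (a signal divided by size factors) returned whole reads for 100% of values within 0.001, and these were tested as an alternative. From the authors' deposited DESeq2 table, the log2 fold changes, mean level, test statistic (a score) and p-values are quoted only where named; its file names no groups, and its direction was read from its agreement with the counts.

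Counts were tested with edgeR 4.0.16 (TMM scaling, filterByExpr, robust quasi-likelihood fit, R 4.3.3) over all genes, with Benjamini-Hochberg adjustment at 0.05. DESeq2 1.42.0 and limma 3.58.1 (voom, and log2 of FPKM plus 1 or 0.1) were alternatives. The statistics were tested on simulated data in which all genes had the same dispersion and no library stood apart. The deposited counts differ in both respects, so that test does not show how small a difference could be found here. SD and n refer to the 3 libraries of a group. Genes described singly were those whose groups did not overlap, the 4 of each compartment with the lowest p, and a list of 8 chosen by role; others were named after their values were seen. The members and lists were chosen with earlier results of these data known. The labels do not say that replicate numbers pair the libraries, so the main fit was unpaired and a fit with the number as a block was an alternative. Within each group no library was a copy of another. Libraries of different groups were not compared in this way.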

Additional observations from a re-analysis of the deposited data

How the results depend on the processing

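The absence of calls among the 36 synthetases held under all 18 alternatives (0 called in each; lowest adjusted p 0.217), and the limit on it is the spread between 3 libraries a group, set largely by control library 2. Over all genes, edgeR called 0, DESeq2 18, and DESeq2 without control 2, an alternative chosen after seeing the data, 155; leaving out each library in turn gave 0 to 1, the 1 without control 2. The median log2 difference stayed between −0.22 and −0.06 for the cytosolic genes and between 0.04 and 0.18 for the mitochondrial genes, so neither changed sign.

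Whether replicate numbers pair the libraries is not stated, and the values do not settle it. Deviations of same-numbered libraries correlated at 0.307, 0.382 and 0.0979, against −0.413 to 0.189 between unlike numbers. Controls 1 and 2 correlated best with the bile acid library of their own number, and control 3 did not. With the replicate number as a block edgeR called 0 genes, and the medians were −0.12 (cytosolic) and 0.15 (mitochondrial).

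Of 648 gene and setting combinations, 593 kept their sign and 55 did not, and 18 genes kept it throughout; the cause of the changes was not tested. DESeq2 without control 2 gave EPRS −0.083, FARSA 0.048, FARSB 0.030, KARS 0.16, LARS −0.069, QARS 0.081, RARS 0.26, MARS2 −0.023, NARS2 −0.030, PARS2 0.015, SARS2 −0.022 and VARS2 0.094. KARS became 0.0075 with DESeq2, 0.0028 with limma-voom, 0.035 without a filter on low counts, 0.0049 with the replicate block, and 0.0028 with the block and the trend with gene length removed. LARS became −0.0091 with a filter of 1 CPM in 3 libraries, −0.12 with the length trend removed, −0.12 with that and the block, −0.017 on either FPKM scale and −0.0037 on recovered reads. NARS became 0.00099 with DESeq2 and 0.025 without a filter, LARS2 0.021 without a filter, and CARS2 −0.18 with the length trend removed and −0.054 with the block as well.

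Leaving out each library in turn moved these genes across 0, with log2 differences of −0.34 to 0.056 for AARS, −0.083 to 0.38 for EPRS, −0.48 to 0.047 for FARSA, −0.36 to 0.029 for FARSB, −0.32 to 0.090 for IARS, −0.097 to 0.16 for KARS, −0.069 to 0.075 for LARS, −0.11 to 0.16 for NARS, −0.17 to 0.080 for QARS and −0.35 to 0.26 for RARS. The mitochondrial ranges were −0.042 to 0.33 for CARS2, −0.044 to 0.19 for HARS2, −0.100 to 0.076 for LARS2, −0.023 to 0.65 for MARS2, −0.030 to 0.23 for NARS2, −0.44 to 0.015 for PARS2, −0.022 to 0.57 for SARS2 and −0.13 to 0.094 for VARS2.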
